A study of Bos taurus and other sequences with 9 samples.

Results

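The loci described here are the 67 human tRNA loci for alanine (Ala) and arginine (Arg) to which small ncRNA reads from cell culture media were assigned. They were taken by name and type from a table of 1361 small ncRNA loci, of which 530 were tRNA loci, and comprised 40 tRNA-Ala and 27 tRNA-Arg loci. The rule itself used no measured value, but it was set with earlier results of these data known. Small ncRNA was sequenced from extracellular vesicle (EV) preparations of 9 samples of 5 media, of which 4 were FBS-based (serum in DMEM/F12). FBS was untreated fetal bovine serum, from Sigma in FBS-1 and from Gibco in FBS-2. The study lists both under the same catalogue number with different lots, so that supplier and lot cannot be told apart. UC-dFBS and UF-dFBS were the same sera after depletion of vesicles by ultracentrifugation or by collecting the flow-through of an ultrafilter, so that replicate 1 was always Sigma serum and replicate 2 always Gibco serum. SBI-dFBS-1 and SBI-dFBS-2 were lots of a commercial vesicle-depleted FBS, and StemPRO was a serum-free and xeno-free medium for mesenchymal stem cells with 1 sample, so that it entered no test. Each FBS-based medium therefore had 1 sample per serum or lot, and p-values measure only the spread between these samples. By the authors' own account the RNA was not shown to be bound to vesicles, and a mix of vesicular and non-vesicular RNA is more likely. Fewer vesicles, less RNA per vesicle and less non-vesicular RNA cannot be told apart in such values.

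A tRNA reads a codon through its anticodon and carries the matching amino acid to the ribosome, and the tRNAs that carry the same amino acid with different anticodons are called isoacceptors. Most vertebrate tRNAs are encoded by several near-identical genes, so that a short read often matches more than 1 locus. In blood and other body fluids much of the tRNA signal comes from fragments, and 5′ fragments of tRNA-Gly, tRNA-Glu, tRNA-His and tRNA-Val are among the best known. Serum RNA is bovine and the loci are human, so that in FBS-based samples a locus name stands for the human sequence that a bovine read resembled. The authors also mapped the reads to the bovine genome. They report that reads of human small ncRNAs other than miRNAs aligned there to a high degree. Their bovine small ncRNA database held no tRNA fragments. StemPRO holds no serum, and by their account the source of its small ncRNA is not clearly known. How a read that matched several loci was placed is not given in the sources used here, and if it was counted at each, a family total exceeds its number of reads.

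The table holds 3 Ala anticodons, AGC with 26 loci, CGC with 5 and TGC with 9. It holds 5 Arg anticodons, ACG with 7 loci, CCG with 4, CCT with 5, TCG with 5 and TCT with 6. In coordinates of the deposited table (GRCh37), 31 of the 40 Ala loci and 11 of the 27 Arg loci lie on chromosome 6, and 16 of the Ala loci fall between 28574933 and 28831533. Of the 67 loci, 61 are 71 to 73 nt long. The 6 ArgTCT loci are 74 to 91 nt long, so that dividing by length would move a comparison between loci by at most 1.28 times. Every locus had a count in at least 1 sample. A total of 17 Ala and 7 Arg loci had a count in all 9 samples, 11 Ala and 3 Arg loci never exceeded 3 counts in an FBS-based sample, and 2 Ala loci had a count only in StemPRO.

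Total counts ranged from 82513 in UF-dFBS-2 to 6867736 in UF-dFBS-1 among the FBS-based samples and came to 6679 in StemPRO. The spike-in factor, the count that equals 1 spike-in normalized count, ranged from 3.78 to 55.2 in the FBS-based samples and was 108 in StemPRO. All levels below are spike-in normalized counts unless called counts. Intervals cover counting error only. They take each count as a separate read, so that they are too narrow if a read was counted at several loci.

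tRNA-Ala was far more abundant than tRNA-Arg. With the Sigma serum the tRNA-Ala level was 26464 for FBS-1, 21482 for UC-dFBS-1 and 5654 for UF-dFBS-1. With the Gibco serum it was 2434 for FBS-2, 9793 for UC-dFBS-2 and 79.1 for UF-dFBS-2. The SBI-dFBS lots had levels of 7150 and 64119, the latter the highest of all samples, and StemPRO had 2.67. The tRNA-Arg level was 205, 99.3 and 59.7 for the same Sigma samples and 9.39, 8.65 and 1.50 for the Gibco samples. It was 56.5 and 201 for SBI-dFBS and 0.824 for StemPRO, so that both families were lowest in StemPRO. By mean level in FBS, tRNA-Ala was the fifth and tRNA-Arg the thirteenth of 20 amino acid families. Counts of tRNA-Ala exceeded those of tRNA-Arg between 52.8 times (UF-dFBS-2) and 1132 times (UC-dFBS-2) in the FBS-based samples, but only 3.24 times in StemPRO. The share of Arg in the summed Ala and Arg counts was accordingly 23.6% in StemPRO (Wilson 95% interval 19.6 to 28.2%) and at most 1.86% (1.35 to 2.57%) in an FBS-based sample.

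**Figure D1:**
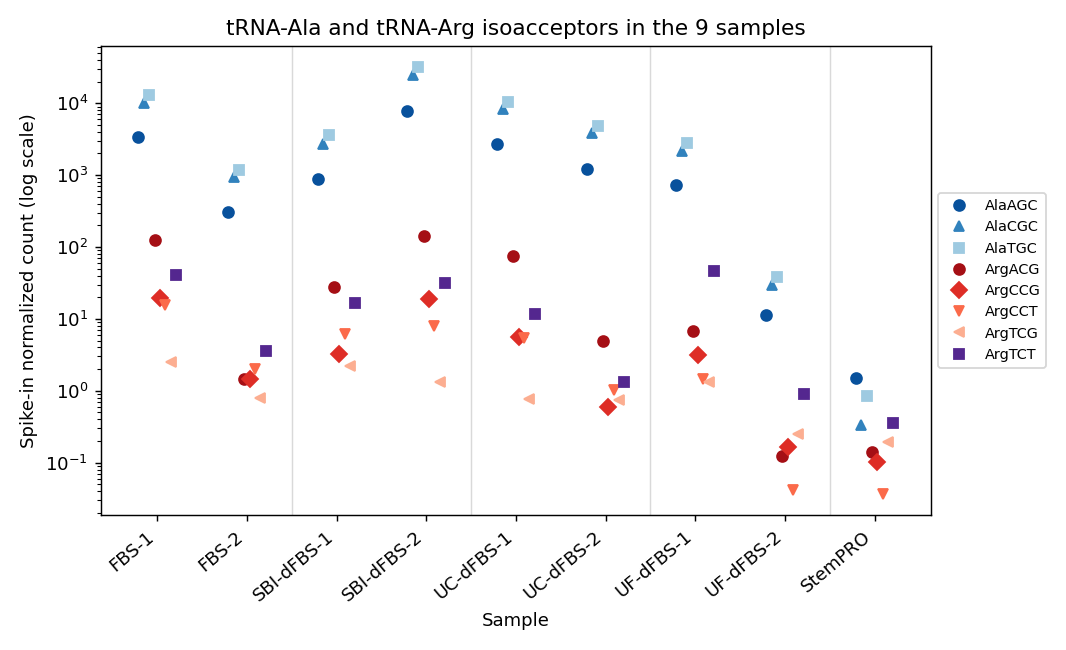
Spike-in normalized counts (log axis) of the 8 isoacceptors in each of the 9 samples, 1 point per isoacceptor and sample. All Ala isoacceptors lie above all Arg isoacceptors in each of the 8 FBS-based samples, whereas in StemPRO ArgTCT (0.352) lies above AlaCGC (0.333). All 8 isoacceptors lie at or below 1.50 in StemPRO.

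Within tRNA-Ala nearly all of the signal came from 8 loci that carried almost the same count whatever their anticodon. In FBS-1 they ranged from 14745 to 17025 counts, and the next Ala locus had 251. The range for FBS-2 was 2128 to 2465 counts, and the next had 15. On the mean level over the 8 FBS-based samples the gap between the lowest of these loci (1936) and the next, tRNA3-AlaAGC (17.2), was 113-fold. The 8 loci held between 95.4% and 99.9% of the Ala counts in every FBS-based sample.

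These abundant loci comprised 1 AGC, 3 CGC and 4 TGC loci. The AGC locus was tRNA120-AlaAGC (chr6:28626014-28626085, minus strand), with 15728 counts in FBS-1. The highest CGC locus was tRNA119-AlaCGC (chr6:28641613-28641684, minus strand) with 17025, and the others were tRNA13-AlaCGC on chromosome 2 and tRNA10-AlaCGC on chromosome 6. The highest TGC locus was tRNA8-AlaTGC (chr5:180633868-180633939, plus strand) with 16156, and the others were tRNA13-AlaTGC and a second locus named tRNA8-AlaTGC on chromosome 12 and tRNA66-AlaTGC on chromosome 6. Their counts were close but not equal, with a coefficient of variation of 3.64% to 16.5% over the 8 loci in the FBS-based samples, widest in SBI-dFBS-1 (6370 to 9789 counts). The variance was 2.47 to 217 times the mean, above the value of 1 that counting alone gives. The loci with the profile over 9 samples most like that of tRNA119-AlaCGC, among 435 loci of other anticodons, were tRNA8-AlaTGC on chromosome 5, tRNA13-AlaTGC and tRNA66-AlaTGC (Pearson r of log2(level + 0.1) at least 0.9997). That correlation is a description over libraries that share their depth with both loci compared.

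The anticodon shares of tRNA-Ala followed the number of abundant loci. AGC took 12.2% to 14.2% of the Ala counts of the FBS-based samples (median 12.7%), CGC 37.7% to 38.9% (median 38.5%) and TGC 47.9% to 50.1% (median 48.7%). The corresponding shares of the 8 abundant loci are 12.5%, 37.5% and 50%. The shares thus moved by at most a few percentage points while the tRNA-Ala level ranged from 79.1 to 64119. With only the highest locus of each anticodon, the mean shares were 31.4%, 35.0% and 33.5%, so that the ranking of Ala anticodons in the FBS-based samples rested on how many loci of each were counted.

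StemPRO had another Ala profile. The 8 loci held only 63 of its 288 Ala counts (21.9%, Wilson 95% interval 17.5 to 27.0%). AGC took 56.3% of the Ala counts there, CGC 12.5% and TGC 31.3%. The highest Ala loci of StemPRO were tRNA166-AlaAGC with 37 counts, tRNA113-AlaTGC with 20 and tRNA68-AlaAGC with 18, all on chromosome 6. In FBS-1 the same loci had 9, 19 and 23 counts beside at least 14745 at each abundant locus. No Ala or Arg locus exceeded 1 spike-in normalized count in StemPRO, where 1 normalized count stands for 108 counts, and the highest reached 0.342.

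**Figure D2:**
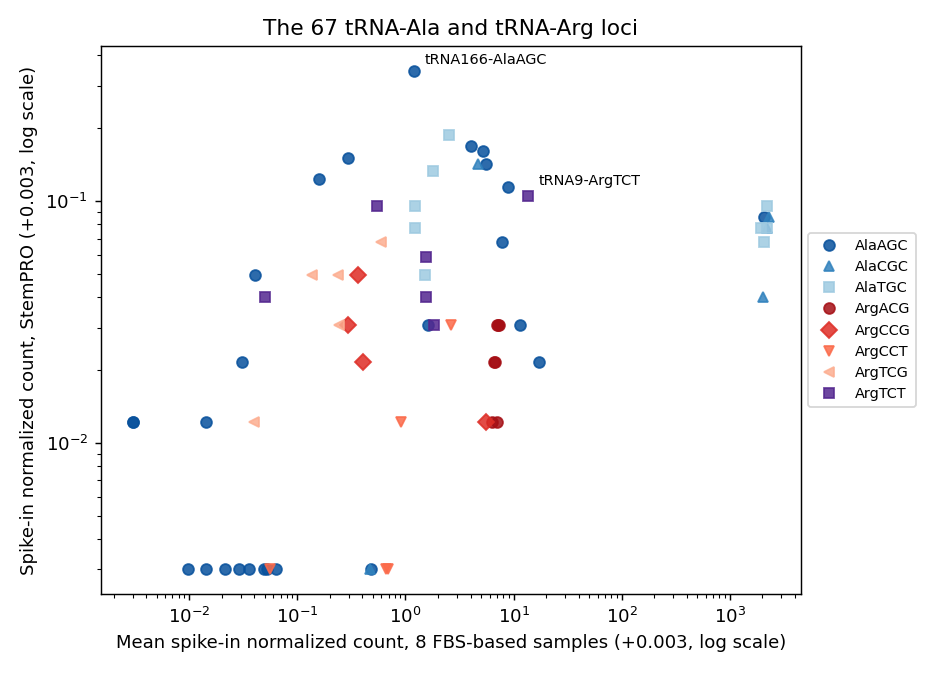
Each point is 1 of the 67 loci, with its mean spike-in normalized count over the 8 FBS-based samples on the x axis and its StemPRO value on the y axis, both on log axes after adding 0.003. The 8 abundant Ala loci stand apart on the right, at or above 1936, but lie within the range of the other loci in StemPRO, where tRNA166-AlaAGC is highest at 0.342.

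In contrast to tRNA-Ala, the anticodon shares of tRNA-Arg differed widely between samples. ACG, which reads CGU, CGC and CGA codons through a modified first base, took 61.7% of the Arg counts of FBS-1, 76.3% of UC-dFBS-1 and 11.3% of UF-dFBS-1. Its shares for the Gibco samples in that order were 15.7%, 57.6% and 8.33%, and those for the SBI-dFBS lots 49.9% and 70.4%. TCT, which reads AGA codons, took 19.9%, 11.7% and 78.8% for the Sigma samples, 38.6%, 15.3% and 61.1% for the Gibco samples and 29.7% and 15.5% for SBI-dFBS. ACG therefore led in 5 of the 8 FBS-based samples and TCT in FBS-2 and in both UF-dFBS samples. StemPRO had 16.9% ACG and 42.7% TCT. The shares of the Gibco samples rest on few Arg counts (70 for FBS-2, 59 for UC-dFBS-2 and 36 for UF-dFBS-2). CCG took at most 15.7% of the Arg counts in an FBS-based sample, CCT at most 21.4% and TCG at most 16.7%.

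**Figure D3:**
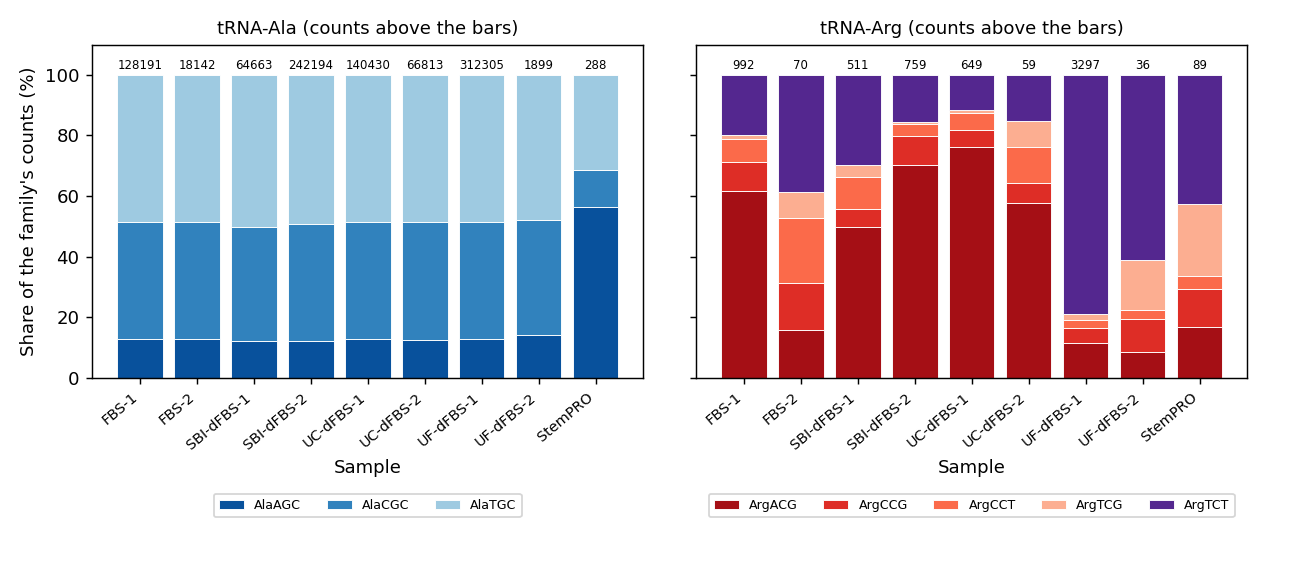
Share of each anticodon (%) in the tRNA-Ala counts (left) and tRNA-Arg counts (right) of every sample, with the number of counts above each bar. The Ala bars of the 8 FBS-based samples are nearly the same and StemPRO differs, whereas ArgACG spans 8.33% to 76.3% and ArgTCT 11.7% to 78.8% in the FBS-based samples.

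The 7 ArgACG loci shared their counts almost equally, as the abundant Ala loci did. In FBS-1 they ranged from 80 to 94 counts, in SBI-dFBS-2 from 67 to 84 and in UF-dFBS-1 from 40 to 70. The variance over these loci was 0.304 to 2.01 times the mean over the 9 samples, so that the loci differed by about as much as counting alone gives. The highest by mean level was tRNA8-ArgACG (chr6:26537726-26537798, plus strand) at 7.27, and the lowest was tRNA6-ArgACG at 6.37.

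Of the other Arg anticodons, TCT had the same leading locus in all 9 samples. The highest locus by mean level of CCG, CCT or TCG did not lead alone in every sample. tRNA9-ArgTCT (chr1:94313129-94313213, plus strand) had the highest mean level of all Arg loci, 13.6, and held between 40.9% and 91.4% of the ArgTCT counts in the FBS-based samples. Its counts were 118 for FBS-1, 44 for UC-dFBS-1 and 2374 for UF-dFBS-1. They were 16, 5 and 9 for the corresponding Gibco samples, 109 and 74 for SBI-dFBS, and 11 for StemPRO. UF-dFBS-1 thus held most of its counts over the whole series, and no other Arg locus exceeded 94 counts in any sample. tRNA23-ArgCCG (chr17:66016013-66016085, minus strand) had 89 of the 95 ArgCCG counts of FBS-1, and tRNA3-ArgCCT (chr7:139025446-139025518, plus strand) had 44 of the 76 ArgCCT counts. In other samples they held less, with 74 of the 172 ArgCCG counts of UF-dFBS-1, 1 of 4 of UF-dFBS-2, and 5 ArgCCT counts beside 7 of tRNA2-ArgCCT for FBS-2. tRNA4-ArgTCG (chr15:89878304-89878376, plus strand) had 48 of the 74 ArgTCG counts of UF-dFBS-1 and at most 11 counts in any other sample, including a tie with tRNA3-ArgTCG at 4 for FBS-1. The highest Arg loci of StemPRO were tRNA9-ArgTCT with 11 counts, tRNA52-ArgTCT with 10 and tRNA4-ArgTCG on chromosome 15 with 7. The loci with the profile most like that of tRNA9-ArgTCT among 434 loci of other anticodons were 3 tRNA-Gly loci, tRNA39-GlyGCC (r = 0.976), tRNA2-GlyGCC (0.974) and tRNA35-GlyGCC (0.974), over the same 9 libraries and with the same limit as above.

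The effect of each depletion method on these loci was asked by comparing the depleted media with FBS. In the edgeR quasi-likelihood fit of the 8 FBS-based samples, 40 of the 67 loci (24 Ala and 16 Arg) reached 10 counts in 2 samples and were tested among 363 loci. None changed in SBI-dFBS, UC-dFBS or UF-dFBS at an adjusted p of 0.05, and the share called among all loci was 0% in each comparison. At an unadjusted p under 0.05 the numbers of members were 0, 1 and 2, and DESeq2 with the spike-in factors called 0, 0 and 3 (0%, 0% and 37.2% of all loci). Of these 3 loci, tRNA108-AlaAGC and tRNA2-ArgCCT on chromosome 16 had under 10 counts in both UF-dFBS samples and passed the filter only through other media, and the third was tRNA36-ArgACG. The locus below 0.05 in UC-dFBS was the same tRNA2-ArgCCT, with 11 and 7 counts in FBS and none in either UC-dFBS sample (adjusted p = 0.989), named after its values were seen. With 2 samples a group from different sera the fit had little power, so that this does not show that the loci did not differ.

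In the Sigma serum, most of the tRNA-Ala level was still present after ultracentrifugation. UC-dFBS-1 held 0.812 times the tRNA-Ala level of FBS-1 (exact 95% interval 0.806 to 0.818), and the 8 abundant loci lay between 0.804 and 0.823. tRNA-Arg was at 0.485 times (0.438 to 0.536), with ArgACG at 0.599 (0.531 to 0.676) and ArgTCT at 0.286 (0.216 to 0.374). All 12 Arg loci with 10 counts in both samples were lower in UC-dFBS-1. The Ala loci outside the abundant set were at 0.503 times (0.446 to 0.567), below the abundant ones.

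In the Gibco serum the direction of tRNA-Ala was the opposite on the spike-in scale. UC-dFBS-2 held 4.02 times the tRNA-Ala level of FBS-2 (3.96 to 4.09), with the 8 abundant loci between 3.89 and 4.20. ArgACG was at 3.38 times (1.67 to 7.39, 34 against 11 counts), and ArgTCT was at 0.364 times (0.151 to 0.798). ArgTCT was thus lower after ultracentrifugation in both sera, and the spike-in normalized levels of tRNA-Ala and ArgACG were lower in one and higher in the other. Other tRNA families split in the same way. In Sigma serum all 20 amino acid families were lower in UC-dFBS-1 than in FBS-1, tRNA-Ala the least. In Gibco serum 12 of the 20 were higher in UC-dFBS-2, with tRNA-His (7.86 times) and tRNA-Val (5.51 times) above tRNA-Ala. For tRNA-Ala this split depended on the scale. As a share of all counts it was higher after ultracentrifugation in both sera, 3.97% against 3.20% with Sigma and 7.32% against 3.00% with Gibco serum, and with TMM the Ala isoacceptors were at log2 changes of 2.17 to 2.19 (adjusted p = 0.749). The share of ArgACG was at 0.916 and 2.05 times and that of ArgTCT at 0.437 and 0.221 times, the same directions as on the spike-in scale. Across both samples of each medium the tRNA-Ala level was 15638 ± 8265 in UC-dFBS and 14449 ± 16992 in FBS (SD, n = 2, exact permutation p = 1), and the tRNA-Arg level was 54.0 ± 64.1 and 107 ± 138 (exact permutation p = 0.667). The smallest p that 2 against 2 samples allow is 0.333.

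After ultrafiltration tRNA-Ala and tRNA-Arg had lower spike-in normalized levels in both sera. Of the 14 Arg loci with 10 counts in both Sigma samples, 13 were lower. In Gibco serum no Arg locus reached 10 counts in both samples. UF-dFBS held 0.214 times the tRNA-Ala level of FBS in the Sigma serum (0.212 to 0.215) and 0.0325 times in the Gibco serum (0.0310 to 0.0341). tRNA-Arg was at 0.291 (0.271 to 0.313) and 0.160 times (0.104 to 0.242). The 3 Ala anticodons kept together, at 0.213 to 0.215 times in Sigma serum and 0.0319 to 0.0364 times in Gibco serum. The direction depended on the scale for tRNA-Ala in Sigma serum and for tRNA-Arg in both sera. With TMM the Ala isoacceptors were still lower but closer to FBS, at log2 changes of -0.54 to -0.47. As a share of all counts, tRNA-Ala took 3.20% of all counts of FBS-1 and 4.55% of UF-dFBS-1 (3.00% and 2.30% for FBS-2 and UF-dFBS-2), and tRNA-Arg took 0.0248% and 0.0480% (0.0116% and 0.0436%). The tRNA-Ala level was 2867 ± 3942 in UF-dFBS and the tRNA-Arg level 30.6 ± 41.1 (SD, n = 2, exact permutation p = 0.667 for each against FBS).

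The Arg anticodons did not keep together under ultrafiltration of the Sigma serum. In Sigma serum ArgACG was at 0.0535 times its FBS level (0.0469 to 0.0609), ArgCCT at 0.0923 (0.0666 to 0.128), ArgCCG at 0.159 (0.123 to 0.206) and ArgTCG at 0.541 (0.292 to 1.09), whereas ArgTCT was at 1.16 (1.00 to 1.34). These intervals, of 1 pair of samples, separate ArgACG from tRNA-Ala and ArgTCT from all of the other Arg anticodons but ArgTCG. In Gibco serum ArgACG was at 0.0846 (0.0152 to 0.320, 3 against 11 counts). That interval holds the 0.0325 of tRNA-Ala and overlaps the interval of ArgTCT (0.253, 0.137 to 0.461), so that the Gibco pair does not show the same separation. The value of ArgTCT came from tRNA9-ArgTCT, which was at 1.76 times its level in FBS-1 (1.47 to 2.14), while the other ArgTCT loci together were at 0.249 (0.192 to 0.326) and all other Arg loci at 0.0926 (0.0843 to 0.102). It was the only 1 of 14 Arg loci with 10 counts in both samples that was higher in UF-dFBS-1 than in FBS-1. In Gibco serum, tRNA9-ArgTCT was at 0.175 times (0.0680 to 0.420, 9 against 16 counts), near the 0.155 (0.0940 to 0.251) of the other Arg loci. As a share of all counts tRNA9-ArgTCT was higher after ultrafiltration in both sera, 11.7 times with Sigma and 4.12 times with Gibco serum. The share of ArgACG was at 0.355 times with Sigma and 2.00 times with Gibco serum.

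**Figure D4:**
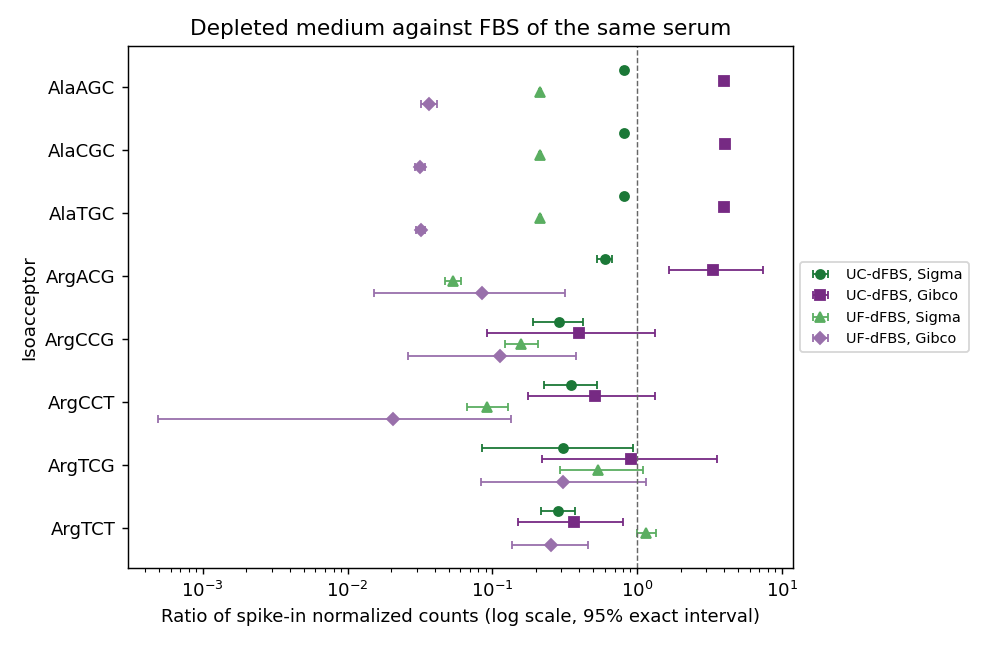
Ratio of the spike-in normalized count in UC-dFBS or UF-dFBS to that in FBS of the same serum for each isoacceptor, on a log axis, with exact 95% intervals that cover counting error only. In UC-dFBS the Ala isoacceptors and ArgACG lie below 1 in Sigma serum and above 1 in Gibco serum, and in UF-dFBS ArgTCT of the Sigma serum (1.16) is the only value above 1.

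Because these media shared their sera with FBS, the fit was repeated with the serum as a block, and this changed the call for UF-dFBS. There, 22 of 38 members tested were lower and none was higher (edgeR quasi-likelihood test, adjusted p under 0.05), against a background of 66.1% of the 322 loci tested, so that a smaller share of the members than of all loci was called. The median log2 change was -3.07 over the members and -3.66 over all loci. The called members were 13 of 14 Arg loci and 9 of 24 Ala loci. Those with the largest decrease were tRNA108-AlaAGC (log2 change -4.54, SE 1.08), tRNA36-ArgACG (-4.35, SE 1.01), tRNA7-ArgACG (-4.31, SE 1.06), tRNA3-AlaAGC (-4.16, SE 1.14) and tRNA3-ArgCCT (-4.14, SE 0.93). Each of them had at most 1 count in UF-dFBS-2 and 5 to 122 counts in UF-dFBS-1. Of the 22, tRNA108-AlaAGC and tRNA104-AlaTGC had under 10 counts in both UF-dFBS samples and passed the filter through FBS and UC-dFBS alone, which favoured their call as lower. Only tRNA9-ArgTCT of the Arg loci was not called, at -0.39 (SE 0.96, adjusted p = 0.71). The 8 abundant Ala loci were at -3.10 to -3.05 with SEs of 2.23 to 2.26 and were not called (adjusted p at least 0.217).

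The same block left UC-dFBS with 0 of 38 members called, 1 at an unadjusted p under 0.05, beside 2.48% of all loci. On counts summed per isoacceptor, 0 of 8 were called in UF-dFBS without the block, with 1 at an unadjusted p under 0.05, and DESeq2 called 0 of 8 (28.3% of all isoacceptors). With the block 3 of 8 were lower, ArgACG (log2 change -3.94, adjusted p = 0.00211), ArgCCG (-2.81, 0.00340) and ArgCCT (-3.95, 0.000225), among 53.8% of the 52 isoacceptors tested. ArgTCT, at 0.12 without the block and -0.67 with it, and the 3 Ala isoacceptors, at -3.07 to -3.02 with it (adjusted p at least 0.149), were not called.

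The lots of SBI-dFBS differed from each other by several fold. tRNA-Ala was 8.97 times higher in SBI-dFBS-2 than in SBI-dFBS-1 (8.89 to 9.05) and tRNA-Arg 3.56 times (3.17 to 3.99). By anticodon, ArgACG was 5.01 times higher (4.31 to 5.84) and ArgTCT 1.86 times (1.45 to 2.38). As shares of all counts the lots differed less, 2.76 times for tRNA-Ala (4.06% against 1.47%) and 1.10 times for tRNA-Arg (0.0127% against 0.0116%), and ArgTCT turned lower in SBI-dFBS-2, at 0.573 times. SBI-dFBS-1 was below and SBI-dFBS-2 above FBS-1 in tRNA-Ala, and the medium means did not differ beyond this spread (35634 ± 40283 against 14449 ± 16992, SD, n = 2, exact permutation p = 0.667). Loci whose level exceeded 1 in either sample numbered 24 Ala and 17 Arg for FBS, 25 and 18 for SBI-dFBS, 21 and 13 for UC-dFBS, and 15 and 8 for UF-dFBS. The loci above that level in SBI-dFBS but not in FBS were tRNA114-ArgCCG, tRNA117-AlaCGC and tRNA4-ArgTCG on chromosome 15, with at most 11 counts each in SBI-dFBS. None was above it in UC-dFBS or UF-dFBS but not in FBS.

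The supplier of the serum was compared within each medium. tRNA-Ala was 10.9 times higher in Sigma than in Gibco serum in FBS (exact 95% interval 10.7 to 11.05), 2.19 times in UC-dFBS (2.17 to 2.21) and 71.5 times in UF-dFBS (68.4 to 74.9). tRNA-Arg was 21.8 times higher in FBS (17.1 to 28.2), 11.5 times in UC-dFBS (8.79 to 15.3) and 39.8 times in UF-dFBS (28.7 to 57.0). The levels of the Sigma and Gibco samples did not overlap for tRNA-Arg (59.7 to 205 against 1.50 to 9.39), and they overlapped for tRNA-Ala (5654 to 26464 against 79.1 to 9793). The mean log2 difference over the 3 media was 3.58 for tRNA-Ala and 4.43 for tRNA-Arg, each higher in Sigma serum in 3 of 3 media (exact paired permutation p = 0.25, the smallest that 3 pairs allow).

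ArgACG had the largest ratio between the sera in FBS, at 85.6 (47.5 to 172), from 612 and 11 counts. In UC-dFBS it was 15.2 (10.7 to 22.2) and in UF-dFBS 54.1 (18.4 to 263, on 373 and 3 counts). The 3 Ala anticodons had near-equal ratios to each other in each medium, 10.83 to 10.95 in FBS, 2.18 to 2.23 in UC-dFBS and 64.6 to 72.8 in UF-dFBS. ArgTCT was at 11.2 (7.49 to 17.5), 8.81 (4.41 to 20.01) and 51.4 (33.8 to 82.1). ArgTCG had the smallest ratio in FBS, 3.08 (1.07 to 9.995). Ratios between units of the same sample do not use the spike-in factors. ArgACG counts per 1000 Ala counts were 3.16 ± 1.82 in Sigma and 0.898 ± 0.592 in Gibco samples (SD, n = 3, exact permutation p = 0.2), higher in Sigma serum in 2 of 3 media. The ratio of ArgACG to ArgTCT counts was 3.25 ± 3.19 and 1.44 ± 2.03 (exact permutation p = 0.6), higher in Sigma serum in 3 of 3 media. In UF-dFBS, however, the ratios were nearly equal, 0.144 with Sigma and 0.136 with Gibco serum, the latter from 3 and 22 counts. The share of Arg was 0.758 ± 0.292% and 0.778 ± 0.949% (exact permutation p = 1). These tests do not use the pairing by medium, and 3 against 3 samples cannot go below 0.1.

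**Figure D5:**
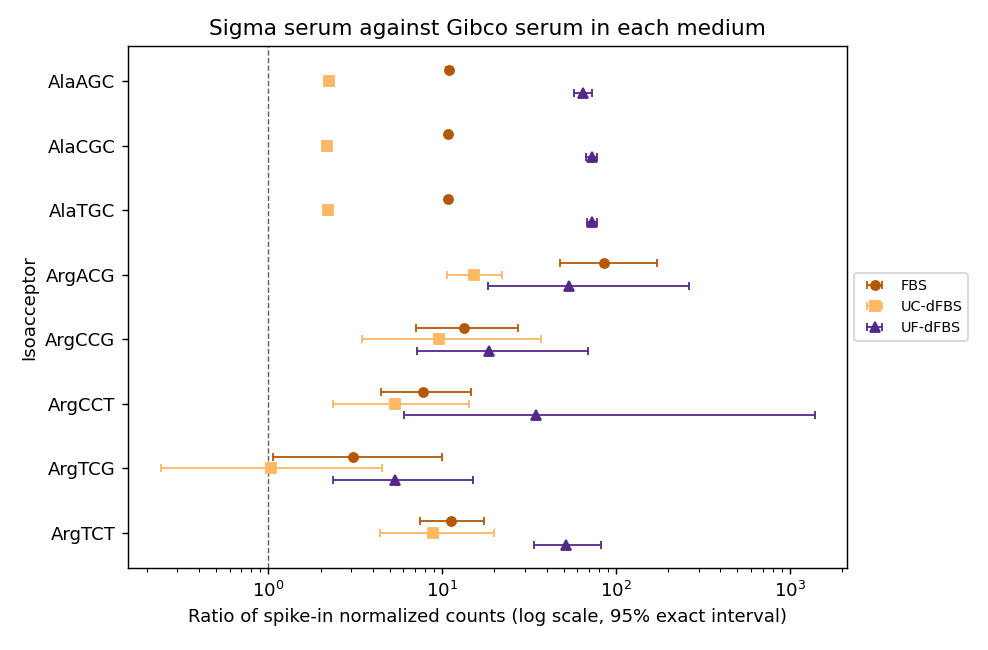
Ratio of the spike-in normalized count in Sigma serum to that in Gibco serum for each isoacceptor in FBS, UC-dFBS and UF-dFBS, on a log axis, with exact 95% intervals that cover counting error only. The Ala isoacceptors move together from about 2.2 in UC-dFBS to between 64.6 and 72.8 in UF-dFBS, and ArgACG in FBS is the largest value at 85.6.

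In the edgeR fit of the 6 samples with the medium as a term, 4 of 7 isoacceptors were higher in Sigma serum and none was lower, against a background of 62.5% of the 48 tRNA isoacceptors tested. The called ones were the 4 Arg isoacceptors tested, ArgACG (log2 difference 5.30, SE 0.97, adjusted p = 1.84e-05), ArgTCT (4.09, adjusted p = 3.95e-05), ArgCCG (3.72, adjusted p = 3.95e-05) and ArgCCT (3.22, adjusted p = 0.000202). The 3 Ala isoacceptors had similar differences, 3.52 to 3.55, and were not called (adjusted p = 0.0596 to 0.0878). As an effect past the threshold in one family and not in the other, this does not show that the families differed. Without FBS-1 only ArgCCG and ArgCCT were called, and DESeq2 with the spike-in factors called 7 of 7 (75% of all isoacceptors).

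On single loci 21 of 30 members tested were higher in Sigma serum and none was lower, 9 of 18 Ala and 12 of 12 Arg loci, against 62.1% of the 280 loci tested and 70.3% of the 202 other tRNA loci among them. Of the 30 tested, 17 never reached 10 counts in a Gibco sample, 7 of the 18 Ala and 10 of the 12 Arg loci. They passed the filter through the Sigma samples alone, which favoured their call as higher, and all 17 were called. Of the 13 that did reach 10 counts in a Gibco sample, 4 were called. These were tRNA101-AlaAGC, tRNA68-AlaAGC, tRNA23-ArgCCG and tRNA9-ArgTCT, which are named after their values were seen. The largest differences were those of tRNA6-AlaAGC (chr8:67026424-67026496, plus strand; log2 7.62, SE 1.00) and tRNA3-AlaAGC (chr2:27274082-27274154, plus strand; 6.31, SE 0.93), which had 97 to 153 and 122 to 251 counts in the Sigma samples and 0 to 2 and 1 to 3 in the Gibco samples, so that the size of these fitted differences rests on few counts. These loci were followed by tRNA156-ArgACG (5.58, SE 0.92), tRNA138-ArgACG (5.57, SE 0.86) and tRNA11-ArgACG (5.49, SE 0.92). All of these loci with the largest differences were among the 17 that passed the filter through the Sigma samples alone. The 8 abundant Ala loci were at 3.49 to 3.59 with SEs of 2.08 to 2.10 and were not called (adjusted p = 0.117 to 0.121). The only member with a lower fitted level in Sigma serum was tRNA166-AlaAGC, at -0.47 (SE 0.82, adjusted p = 0.631), with 9 and 15 counts for FBS-1 and FBS-2. The number of members called fell from 21 to 2 without FBS-1, to 2 without UC-dFBS-1 and to 4 without UF-dFBS-1, with 12 or 13 members left to test. Without a Sigma sample the 17 loci could not reach 10 counts in 3 samples and left the test. The loss of these 17 calls was therefore fixed by the filter.

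These supplier differences depended on the scaling. The median over all loci tested was 3.13 with the spike-in factors and -0.29 with TMM, which scales on the counts themselves, a shift of -3.42. With TMM 3 of 30 members were called, tRNA6-AlaAGC (4.80) and tRNA3-AlaAGC (3.21) higher and tRNA166-AlaAGC lower (-4.54) in Sigma serum, beside 39.3% of all loci (17.9% higher and 21.4% lower). The abundant Ala loci were then at -0.08 to 0.05, and of the isoacceptors ArgACG alone stayed called, at 2.93 (adjusted p = 0.00259), beside 14.6% of isoacceptors higher and 4.17% lower. As a share of all counts, the mean log2 difference between the sera was 0.06 for tRNA-Ala and 0.91 for tRNA-Arg. Other measures moved with the serum. Total counts were 3536119 to 6867736 in the Sigma samples and 82513 to 912341 in the Gibco samples. Of 8 miRNAs listed as markers of red cells, white cells with platelets, and liver, 7 were higher in FBS-1 than in FBS-2, and their summed level was 47.7 to 23285 in the Sigma and 17.9 to 6257 in the Gibco samples. The red cell miRNAs together were at 0.772 times in FBS-1 against FBS-2, and the liver miRNA, hsa-miR-122-5p, at 4.03 times. No listed miRNA was at 0 in every sample. The part of these measures in the supplier differences was not tested.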

How the data were processed

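Per the labels and the study's methods, small ncRNA from vesicle preparations was sequenced with unique molecular indices (UMIs). The authors trimmed reads with cutadapt 1.11, kept inserts of at least 16 nt and collapsed reads with a full UMI. They mapped with Bowtie2 2.2.2 to miRBase 20 and then to human GRCh37 or a bovine genome. In the genome step 1 mismatch was allowed in the first 32 bases. The loci used here are those of the human mapping. The counts deposited are per locus and not spike-in normalized, and by these steps they follow the UMI collapse. Each deposited normalized value is a signal that the authors obtained by dividing a count by 1 factor per sample, fitted to external spike-ins. The spike-ins are miRNA-sized, and by the study's own remark the scale is probably less accurate for other small ncRNAs, tRNA among them.

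Loci were taken by name, and counts were summed per anticodon with numpy 2.4.6 and pandas 2.3.3 in python 3.11.15. The edgeR 4.0.16 quasi-likelihood test (R 4.3.3, Benjamini-Hochberg adjustment, threshold 0.05) was run over all loci with the spike-in factors as library sizes. The medium fit took loci with at least 10 counts in 2 of the 8 FBS-based samples. The supplier fit took loci with at least 10 counts in 3 of 6 samples, with the medium as a term. Totals were compared by exact two-sided permutation tests of log2 levels (scipy 1.17.1), and ratios of 2 samples carry exact 95% binomial intervals of their counts. Alternatives were TMM, DESeq2 1.42.0, other filters, each sample left out, loci with identical counts taken once, and the serum as a block. Ratios of shares of all counts for anticodons, single loci and SBI-dFBS lots were added after seeing the data. The members and lists were chosen with earlier results of these data known. Every anticodon was described. Single loci were named for the highest mean level in an anticodon, for up to 5 largest called changes per comparison and direction that held in each pair of samples, and for the 3 highest levels per family in StemPRO.

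The numbers 1 and 2 mark a shared serum by the supplier labels. Deviations of the same-numbered samples were correlated over 417 loci. FBS correlated with UC-dFBS at r = 0.753 and with UF-dFBS at 0.623, the depleted media correlated with each other at 0.596, and SBI-dFBS, of other sera, correlated with these media at -0.560 to -0.443. With 2 samples per medium, the sign of the SBI-dFBS values depends only on how its lots were numbered. Their size came near 0.596, so that these correlations cannot tell a shared serum from another. The fits were tested on simulated counts. With the spread of the real samples and log2 changes of 6 to 8, the medium fit for UF-dFBS found 0 of 90 changed loci among 363, the fit with the serum block 72 of 80 among 322 and the supplier fit 60 of 70 among 280. With the same real spread and changes of 2 to 3 they found only 0 of 90, 17 of 80 and 14 of 70. The supplier fit of isoacceptors found 0 of 8 such changes and 8 of 8 changes of 6 to 8. With a small known spread and changes of 2 to 3 the 3 fits of loci found 85 of 90, 73 of 80 and 69 of 70. For values of 1 sample, Wilson 95% intervals are given.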

Additional observations from a re-analysis of the deposited data

Results flagged for a closer look

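The values in this paragraph are given because the effect of a depletion had opposite directions in the Sigma and Gibco sera. For UC-dFBS this was not particular to these loci. Of the 20 amino acid families, all were lower than FBS in Sigma serum and 12 were higher in Gibco serum. With 1 sample of each serum per medium, the difference between the sera was not tested. From FBS to UC-dFBS, the log2 change in Gibco serum minus that in Sigma serum was 2.31 for tRNA-Ala as a whole, 2.30 for AlaAGC, 2.32 for AlaCGC, 2.31 for AlaTGC and 2.49 for ArgACG, each lower than FBS in Sigma serum and higher in Gibco serum. From FBS to UF-dFBS it was -2.19 for ArgTCT and -3.34 for tRNA9-ArgTCT, which were higher than FBS in Sigma serum and lower in Gibco serum. These opposite directions are on the spike-in scale. As a share of all counts, tRNA-Ala was higher in UC-dFBS in both sera (1.24 times with Sigma and 2.44 times with Gibco serum), and in UF-dFBS ArgTCT (7.69 and 5.96 times) and tRNA9-ArgTCT (11.7 and 4.12 times) were higher in both, whereas ArgACG kept opposite directions in UC-dFBS (0.916 and 2.05 times). The first 4 values rest on the same 8 abundant Ala loci, and the last 2 on the same locus. FBS-2 enters each of these differences, with 18142 Ala and 70 Arg counts.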

How the results depend on the processing

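Members called in UF-dFBS against FBS, 0 of 40, became 3 with DESeq2 and spike-in factors and 22 of 38 with the serum as a block, and isoacceptors called, 0 of 8, became 3 with the block. Members called between the sera, 21 of 30, became 8 with DESeq2's own size factors (7 higher and 1 lower in Sigma serum), 3 with TMM, 6 of 14 with at least 50 counts and 0 without the medium as a block. Without 1 sample the number was 2 to 21, with the lowest values without FBS-1 (2 of 13), UC-dFBS-1 (2 of 13) and UF-dFBS-1 (4 of 12). Leaving out a Sigma sample took the 17 members with under 10 counts in every Gibco sample out of the test, by the filter itself. Isoacceptors called between the sera, 4 of 7, became 7 with DESeq2 and spike-in factors, 1 with TMM, 0 without the block, and 2 (without FBS-1) to 5 without 1 sample. The blocks changed no other call. In UF-dFBS, the log2 change turned from negative to 1.85 for ArgTCG with TMM, and from 0.12 to -0.67 for ArgTCT with the block. Without 1 sample it ranged from -8.85 to 1.22 for ArgACG, -5.87 to 0.16 for ArgCCG, -7.36 to 0.26 for AlaAGC, -7.54 to 0.23 for AlaCGC and -7.54 to 0.24 for AlaTGC, each highest without FBS-1, and from -4.57 (without UF-dFBS-1) to 2.72 for ArgTCT. tRNA8-AlaTGC on chromosome 5 was at -0.0088 between the sera with TMM. As shares of all counts, the log2 changes of totals reversed to -0.17 (tRNA-Ala) and -0.58 (tRNA-Arg) in SBI-dFBS and to 0.14 and 1.33 in UF-dFBS. Without 1 sample, tRNA-Ala ranged from -1.02 to 3.87 for SBI-dFBS, -0.76 to 2.68 for UC-dFBS and -7.51 to 0.24 for UF-dFBS, and tRNA-Arg from -0.92 to 3.78, -3.63 to 2.52 and -6.16 to 1.70. The sign turned without SBI-dFBS-2, UC-dFBS-1, FBS-1 or FBS-2. Leaving out tRNA9-ArgTCT, chosen after seeing the data, moved tRNA-Arg in UF-dFBS from -1.81 to -3.40. With the highest locus of each anticodon alone, the shares were 31.4% (AlaAGC), 35.0% (AlaCGC), 33.5% (AlaTGC) and 16.9% (ArgCCG), and the Sigma minus Gibco difference of the Arg share was 0.324 in place of -0.0202 percentage points. At a threshold of 5, the loci above it were 13 Ala for FBS, 11 for UC-dFBS and 8 for UF-dFBS, and 9 Arg for SBI-dFBS, 8 for UC-dFBS and 1 for UF-dFBS. At 0.1 they were 25 Ala in UF-dFBS and 10 in StemPRO, and 25 Arg in UC-dFBS, 21 in UF-dFBS and 1 in StemPRO. By the mean of the samples 1 Arg locus was above 1 in UF-dFBS. Without 1 sample they were 9 to 24 Ala for FBS, 21 to 24 for SBI-dFBS, 11 to 21 for UC-dFBS and 8 to 15 for UF-dFBS, and 2 to 17, 16, 0 to 13 and 0 to 8 Arg. Of the alternative values, 424 were classed as unchanged, 36 as moved, 23 as reversed, 33 as weaker and 10 as stronger. For a fitted change, unchanged meant the same direction and side of the threshold, and for a total or the Arg share the same sign. For a number called or detected it meant within a set factor, and for an anticodon share within the SD between samples. Reversed values turned their sign, and weaker and stronger ones lost or gained a call. Apart from the loss of members to the filter when a Sigma sample was left out, the cause of these changes was not tested. Gibco samples with 36 to 70 Arg counts limit what could be told apart there.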

Other observations

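The RefSeq annotation of the bovine assembly ARS-UCD2.0 lists tRNA genes for the same anticodons. For Ala it lists 25 genes with AGC, 10 with CGC and 18 with UGC, beside 26, 5 and 9 human loci in the table. For Arg it lists 30 genes with ACG, 9 with CCG, 40 with CCU, 11 with UCG and 19 with UCU, beside 7, 4, 5, 5 and 6 human loci. It also lists 23 genes with the anticodon GCG for Arg, which no locus of the table carries. Some bovine tRNA annotations are repeats derived from tRNAs, and how many of these genes are transcribed was not analysed here.

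Loci far below the abundant ones differed in their profile from them. tRNA105-AlaAGC had 2 counts in FBS-1, 15 in UF-dFBS-1 and 16 in StemPRO, and tRNA9-AlaAGC had 2, 35 and 13, so that both had more counts in StemPRO, the library with the lowest total, than in FBS-1. These loci were chosen after their values were seen.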
